A study of Mus musculus with 8 samples.

Results

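Cortical thymic epithelial cells (cTECs) that lack Mcl1 were compared with wild-type (WT) cTECs by RNA sequencing. The comparison took the 5 libraries labelled as cTEC out of 8 in the series: 4 libraries of C57BL/6 mice with the genotype Wild-type and 1 library of C57BL/6 mice with the genotype Mcl1 knock-out (KO). No medullary library entered the comparison. All 5 were made from polyadenylated RNA of frozen cell pellets of thymic epithelium, by full-length cDNA amplification from low RNA input and tagmentation. The labels give no age or sex, no gate for the sort, and neither the deleted part of Mcl1 nor the promoter or allele by which the deletion was made. The series counts its libraries as biological replicates, and the KO group has 1 of them, so the error of every comparison rests on the spread between WT libraries. With 1 library against 4, an exact permutation test of a single gene cannot give a p under 0.2.

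MCL-1 is an anti-apoptotic protein of the BCL-2 family that holds pro-death family members in check at the mitochondrial outer membrane, and it is turned over quickly. Thymic epithelial cells form the stroma on which T cells develop. The cortical cells express Delta-like 4, which commits progenitors to the T lineage, and a cortex-specific proteasome that makes peptides for positive selection. The medullary cells (mTECs) express antigens of other tissues under the control of Aire and Fezf2, and some of them take on features of other cell types such as tuft cells, which carry taste-signalling proteins.

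Total counts ran from 13300969 to 18338441 in the WT libraries and came to 15314527 in the KO library. At a common depth of 13300969 counts, 18490 to 20101 genes had a count in the WT libraries and 17673 in the KO library. Levels are given in CPM (counts scaled by library total and TMM factor), in the order of WT libraries 1 to 4. A count of 0 in the KO library was given an upper limit of 3 counts, or 0.191 CPM, and folds against it are lower bounds that cover counting error only. Of 17483 genes tested, 629 (3.6%) were called higher and 1821 (10.4%) lower in the KO library at an adjusted p under 0.05 (edgeR quasi-likelihood test, two-sided, Benjamini-Hochberg), and the median log2 fold change of all tested genes was -0.158. In all, 28% of genes lay above and 35.1% below every WT library. Each count of list members below is to be read beside these shares, and several lie near them. Genes at 0 counts in the KO library were tested only because of their WT levels, so for them the shares are not a like comparison. WT library 1 stood apart from the other WT libraries: its immediate-early genes summed to 4628 CPM against 25970 to 36069 CPM in WT libraries 2 to 4 and 7689 CPM in the KO library, and its heat shock genes to 5198 CPM against 15749 to 15888 CPM and 11940 CPM. The cause of this split was not tested. Without that library 19 immediate-early genes were called lower in KO, against 2 with it.

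Mcl1 (Entrez 17210, chromosome 3, 95656944 to 95663179, mm10) checks the labels. Its level was 232, 313, 264 and 244 CPM in the WT libraries and 8.16 CPM in the KO library, where 128 counts were left, or 3.10% of the WT mean. The KO library lay under every WT library, and the log2 fold change was -5.01 ± 0.34 (SE), adjusted p = 0.000195. Of the 5 nearest genes tested on each side of Mcl1 on chromosome 3, 8 were not called, among them Ensa, an inhibitor of a phosphatase, with 161, 139.5, 138 and 144 CPM in WT and 158 CPM in KO, and Adamtsl4 with 19.4, 44.6, 28.1 and 46.7 CPM and 24.2 CPM. The others were called lower: Ctss, which encodes the protease cathepsin S, with 103, 50, 41.2 and 49.7 CPM in WT and 1.85 CPM in KO, a log2 fold change of -5.04 ± 0.70 that is close to that of Mcl1 (adjusted p = 0.00284 in edgeR and 6.30e-16 to 0.0647 over the alternatives, the highest in limma-voom), and Ecm1, which encodes a secreted matrix protein, with 68.2, 175, 103 and 64.8 CPM and 14.5 CPM (adjusted p = 0.0211 in edgeR and 2.46e-06 to 0.0683 over the alternatives, the highest in limma-voom).

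**Figure D1:**
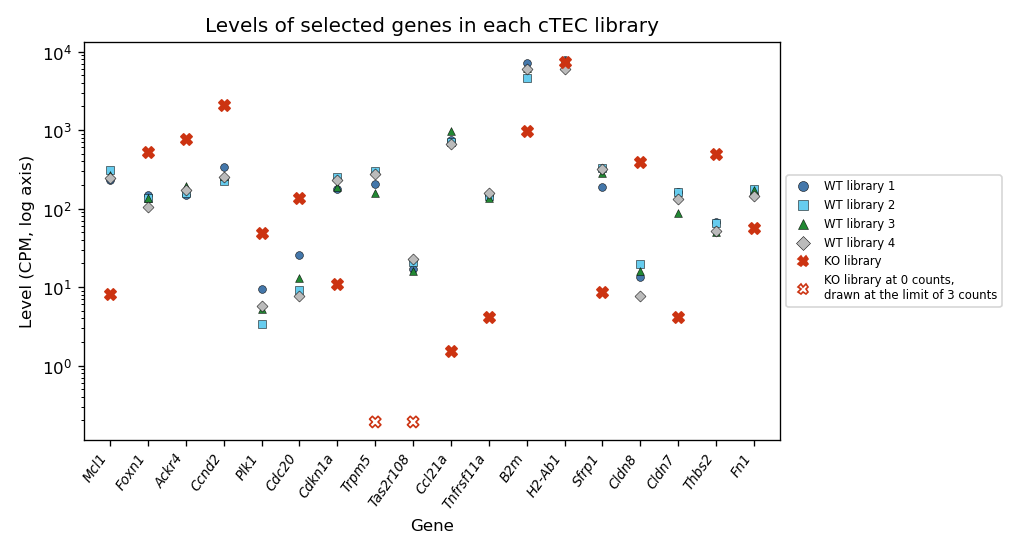
Levels (CPM, log axis) of 18 genes named in the text in each of the 5 cTEC libraries, with 1 symbol per WT library and a cross for the KO library, open where the count was 0. Mcl1 stands at 8.16 CPM in the KO library, and Foxn1, Ccnd2 and Plk1 lie above all WT libraries while Trpm5, Ccl21a and B2m lie below them.

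Genes that act around MCL-1 changed in part. Of 7 pro-survival BCL-2 genes 4 were called lower, against 10.4% of all genes: Mcl1 itself and Bcl2a1a, Bcl2a1b and Bcl2a1d, near-identical copies whose reads can be split by the counting. These copies were not called in limma-voom, where 1 member of the list was. Bcl2, the founding member of the family, was at 85.4, 128, 152 and 167 CPM in WT and 226 CPM in KO and was not called (adjusted p = 0.165). Among 10 pro-death genes, Pmaip1, whose product NOXA binds MCL-1, fell from 107, 153, 99.7 and 105 CPM to 1.02 CPM (log2 fold change -6.82 ± 0.48, adjusted p = 0.000195). The KO library lay far below the lowest WT library. Bax, an effector of outer membrane permeabilisation, was within the WT range at 84.4 CPM. The 16 caspase and apoptosome genes had 1 called lower (2 without WT library 1 or library 4, 0 without library 2 or library 3) and a median log2 fold change of -0.096, close to that of all genes.

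Inflammatory death genes were lower in part. Of 13 necroptosis and pyroptosis genes 4 were called lower (7 with DESeq2) and none higher, and 9 lay below all WT libraries, against 35.1% of all genes. Casp4, the caspase that senses cytosolic lipopolysaccharide, stood at 77.4, 67.3, 60.1 and 64.96 CPM in WT and 4.91 CPM in KO (log2 fold change -3.78 ± 0.33, adjusted p = 0.000475). Casp1, the inflammasome caspase, stood at 146, 74.9, 83.7 and 97.2 CPM and 9.18 CPM (log2 fold change -3.45 ± 0.47, adjusted p = 0.00259). Zbp1, a sensor of left-handed nucleic acids, was even across the WT libraries (102, 106, 101 and 103 CPM) and at 16.5 CPM in KO. Gsdmd, whose cleaved product forms the pyroptotic pore, was at 117, 129.6, 105 and 149 CPM in WT and 43.3 CPM in KO. For each of these 4 genes the KO library lay below every WT library, and the call was kept in all 13 alternatives. Of 11 genes of MCL-1 turnover (ubiquitin ligases, deubiquitinases and their partners), 1 was called, Ube2c, which is also a mitotic gene (2 without WT library 1).

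Cortical markers were present in the KO library: of 19, 9 lay above every WT library, 7 within the WT range and 3 below it. Psmb11, the cortical proteasome subunit, was at 406, 293, 289 and 148 CPM in WT and 744 CPM in KO (adjusted p = 0.0582), and Prss16, a thymus-specific protease, at 1239.6, 1082, 892 and 578 CPM and 1404 CPM (adjusted p = 0.358). Neither was called in edgeR, but Psmb11 was called higher in 4 of the 13 alternatives (with DESeq2, with all 8 libraries, and without WT library 1 or library 4). Of 19 cTEC markers 5 were called higher, against 3.6% of all genes, and 2 lower, against 10.4%, with a median log2 fold change of 0.421. The 2 called lower were Scx, at 34.5, 64.3, 62.3 and 68.7 CPM in WT and 11.4 CPM in KO, and Dkk3, at 15.9, 34.6, 28.9 and 25.8 CPM and 7.01 CPM. Without WT library 1, and with DESeq2, 8 were called higher; the lower calls were 1 without WT library 2, library 3 or library 4 and 0 in limma-voom. Foxn1, the transcription factor that thymic epithelium requires, stood at 149.8, 136, 136 and 105 CPM in WT and 523 CPM in KO (log2 fold change 1.99 ± 0.22, adjusted p = 0.00111). Ackr4, a scavenger of chemokines in the cortex, stood at 149, 159, 193 and 169.8 CPM and 769.6 CPM (log2 fold change 2.20 ± 0.20, adjusted p = 0.000532). Pltp, a phospholipid transfer protein, stood at 829.6, 709, 809.5 and 512 CPM and 2292 CPM (log2 fold change 1.68 ± 0.28, adjusted p = 0.00611). For these 3 genes the highest WT level was at most 1.62 times the lowest, and the KO library was at least 2.76 times the highest. Other markers stayed within the WT range: Tbata at 1028 CPM in KO, Ly75 at 209 CPM and Ccl25, the chemokine that draws progenitors into the thymus, at 788 CPM.

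Among transcription factors of thymic epithelial identity, 3 of 14 were called higher and none lower. Pax1, needed for growth of the thymic anlage, was at 390.1, 339, 313 and 333 CPM in WT and 728 CPM in KO (log2 fold change 1.08 ± 0.21, adjusted p = 0.0125). Trp63, which sustains epithelial progenitors, was at 515, 549, 726 and 506 CPM in WT and 674 CPM in KO, within the WT range. Isl1 was within the range as well, at 232 CPM.

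Epithelial keratins and junction genes split by member. Of 19 keratins 9 were called lower and 1 higher, and 13 lay below all WT libraries. The keratins that fell included those of stratified and stressed epithelium: Krt17 was at 2133, 3093, 2239.5 and 2466 CPM in WT and 879 CPM in KO, and Krt7, a keratin of simple ducts, at 1048, 1045, 1139.7 and 941 CPM and 477 CPM. The call of Krt7 was lost without WT library 2 or library 3 (adjusted p = 0.0232 in edgeR and 2.73e-06 to 0.0755 over the alternatives, the highest without WT library 3). Krt5 and Krt14, the basal keratin pair, were within the WT range, at 888 CPM and 1019 CPM in KO. Krt8, a simple keratin of cortical cells, was called higher at 1794, 1553, 1208 and 1441 CPM in WT and 3106 CPM in KO, and this call was lost without WT library 2, library 3 or library 4 (adjusted p = 0.0355 in edgeR and 0.000475 to 0.103 over the alternatives, the highest without WT library 3). The summed keratin level of the KO library, 10210 CPM, lay inside the WT range of 9332 to 11820 CPM. In limma-voom 3 keratins were called lower, and without WT library 1 there were 2 called higher.

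Tight junction genes held the sharpest exchange of members. Cldn8, a claudin of tight epithelia, stood at 13.3, 19.5, 16.1 and 7.66 CPM in WT and 388 CPM in KO (log2 fold change 4.78 ± 0.36, adjusted p = 0.000249), a KO level 27.4 times the WT mean. Cldn7 stood at 162, 161, 86.9 and 130.5 CPM and 4.21 CPM (log2 fold change -5.00 ± 0.50, adjusted p = 0.000675). Of 21 claudin and tight junction genes 10 were called lower and Cldn8 alone higher. Cldn3 and Cldn4, which mark medullary progenitors, fell with Cldn7, but their calls were lost in limma-voom. The adjusted p of Cldn3 was 0.00854 in edgeR and 2.92e-10 to 0.0606 over the alternatives, the highest in limma-voom. That of Cldn4 was 0.0112 in edgeR and 1.58e-13 to 0.081 over the alternatives, the highest in limma-voom. In limma-voom the log2 fold changes of Cldn3 and Cldn4 were -3.60 and -4.70. Their WT levels were 62.7, 142, 49.02 and 86.6 CPM and 59.9, 245, 96.3 and 139.5 CPM, with WT library 2 the highest in both, and their KO levels 6.37 CPM and 4.53 CPM. In limma-voom 4 members of the list were called lower.

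Among laminins and nidogens, which link the epithelium to its basement membrane, higher calls outnumbered lower ones. Of 23 basement membrane and hemidesmosome genes 5 were called higher and 1 lower (3 lower without WT library 1 or with DESeq2). Lamb1, a beta chain of laminin, was even in WT (242, 253, 228 and 242 CPM) and at 540.1 CPM in KO (log2 fold change 1.16 ± 0.19, adjusted p = 0.00588). Nid1 and Nid2, which bridge laminin and collagen IV, reached 79.4 CPM and 78.98 CPM in KO, against WT ranges of 3.45 to 15.1 CPM and 14.1 to 28.6 CPM. Itgb4, an integrin subunit of hemidesmosomes, was within the WT range at 311 CPM.

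Genes of mitosis were higher as a group. All 24 of the 24 G2 and mitosis genes lay above every WT library, against 28% of all genes, and 18 were called higher against 3.6%; the median log2 fold change was 2.52. Mitotic genes are switched on late in the cycle through promoters that often hold CCAAT boxes, bound by NF-Y, and the cell cycle homology region, bound by the DREAM and MYB-MuvB complexes. The promoters of Plk1 and Cdc20 are shown because both genes were called in all 13 alternatives and hold both motifs. The windows run from 250 bases before to 50 after the gene's start in RefSeq (GRCm38.p6), 5′ to 3′ on the gene's strand. Capitals mark TTTGAA, a form of the cell cycle homology region, and CCAAT.
Plk1, chr7:122159185-122159484, plus strand: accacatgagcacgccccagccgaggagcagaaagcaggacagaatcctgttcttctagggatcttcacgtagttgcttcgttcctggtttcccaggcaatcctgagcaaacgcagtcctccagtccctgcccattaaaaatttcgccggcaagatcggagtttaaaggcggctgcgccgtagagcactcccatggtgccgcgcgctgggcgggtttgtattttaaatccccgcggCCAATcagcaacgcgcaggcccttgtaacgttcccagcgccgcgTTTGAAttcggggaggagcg
Cdc20, chr4:118437294-118437593, minus strand: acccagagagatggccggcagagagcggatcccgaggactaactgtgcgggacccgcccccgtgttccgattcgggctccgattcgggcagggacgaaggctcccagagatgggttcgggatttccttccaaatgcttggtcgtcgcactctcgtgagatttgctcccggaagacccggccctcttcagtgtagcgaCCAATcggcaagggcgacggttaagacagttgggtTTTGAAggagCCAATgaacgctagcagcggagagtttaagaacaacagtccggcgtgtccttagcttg

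TTTGAA or TTCGAA was found on either strand in 15 of 19 G2 and mitosis promoters in the table (78.9%), in 13 of 20 promoters of kinetochore and spindle checkpoint genes (65.0%), in 4 of 21 promoters of S phase genes (19%) and in 14.6% of the 13105 tested genes with a promoter in the table. CCAAT was found in 17 of the 19 (89.5%), against 38.2% of the tested genes. The motifs do not overlap each other, and a match describes these letters only.

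Plk1, the kinase that drives mitotic entry and spindle assembly, stood at 9.43, 3.37, 5.20 and 5.66 CPM in WT and 48.3 CPM in KO (log2 fold change 3.03 ± 0.46, adjusted p = 0.00411). Cdc20, which activates the anaphase-promoting complex, stood at 25.2, 9.11, 12.9 and 7.61 CPM and 135 CPM (log2 fold change 3.30 ± 0.49, adjusted p = 0.00399). Ccnb1, the mitotic cyclin, stood at 13.1, 3.29, 4.48 and 2.89 CPM and 51.8 CPM (log2 fold change 3.13 ± 0.67, adjusted p = 0.0176). WT library 1 was the highest WT library for each of these genes, and the KO library lay at 3.97 to 5.35 times that library. The summed level of the 24 genes was 528 CPM in WT library 1, 154 to 235 CPM in WT libraries 2 to 4 and 1572 CPM in the KO library. Against WT library 1 alone the median log2 fold change of the list was 1.54. The count of 18 called became 24 without WT library 1, 15 without library 2, and 12 without library 3 or library 4.

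**Figure D2:**
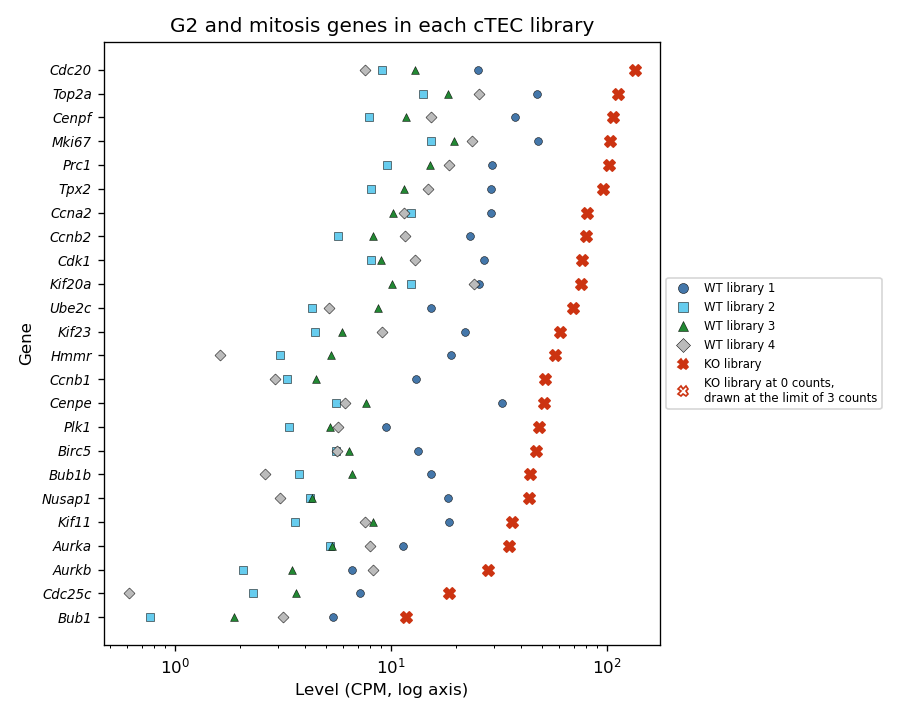
Levels (CPM, log axis) of the 24 G2 and mitosis genes, ordered by their level in the KO library, with 1 symbol per library. Each KO value lies to the right of all 4 WT values, and WT library 1 is the highest WT library in 23 of the 24 rows.

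Kinetochore and replication genes followed with smaller changes. Of 24 kinetochore, spindle checkpoint and condensin genes 22 lay above all WT libraries and 8 were called higher, a count that was 19 without WT library 1, and 5, 4 and 3 without WT libraries 2, 3 and 4. Spc25, part of the NDC80 complex that binds microtubules, was at 35.2, 9.72, 12.6 and 14.5 CPM in WT and 93.01 CPM in KO, and its call was lost without WT library 3 or library 4 (adjusted p = 0.024 in edgeR and 0.000263 to 0.0642 over the alternatives, the highest without WT library 4). Pttg1, which encodes securin, was within the WT range at 107 CPM. Of 26 S phase and replication genes 22 lay above all WT libraries, against 28% of all genes, and 3 were called higher, against 3.6%. The count of 3 was 6 with DESeq2, 9 without WT library 1 and 1, 1 and 2 without WT libraries 2, 3 and 4. Mcm5, a subunit of the replicative helicase, was at 23.9, 22.1, 18.8 and 24.6 CPM in WT and 56.8 CPM in KO (log2 fold change 1.34 ± 0.26, adjusted p = 0.0123).

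Regulators of the G1 phase moved apart. Ccnd2, a D-type cyclin that starts the cycle with CDK4 and CDK6, stood at 338, 226, 259 and 250 CPM in WT and 2063 CPM in KO (log2 fold change 2.94 ± 0.24, adjusted p = 0.000359). Cdk4 itself stood at 257, 210.3, 285 and 191 CPM and 547 CPM (log2 fold change 1.21 ± 0.25, adjusted p = 0.0154). Ccnd3, another D-type cyclin, was at 107, 158, 137 and 124 CPM in WT and 86.9 CPM in KO and was not called (adjusted p = 0.186). Of 23 G1 cyclin, E2F and Rb family genes 5 were called higher and 1 lower, with 2 higher without WT library 3 and 0 lower without WT library 2, library 3 or library 4.

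Inhibitors of cyclin-dependent kinases and growth-arrest genes lay below all WT libraries in 9 of 12 cases: 5 were called lower and 1 higher (0 without WT library 2 or library 3), with a median log2 fold change of -2.05. Cdkn1a, which encodes p21, was at 175, 252, 189.7 and 234 CPM in WT and 10.96 CPM in KO (log2 fold change -4.28 ± 0.36, adjusted p = 0.000371). Cdkn1c, which encodes p57, was at 200, 71.7, 82.1 and 94.7 CPM and 6.95 CPM, with WT library 1 well above the other WT libraries (log2 fold change -4.01 ± 0.70, adjusted p = 0.0075). Cdkn2b, which encodes p15, was at 64.97, 52.5, 36.3 and 56.6 CPM and 4.53 CPM (log2 fold change -3.54 ± 0.44, adjusted p = 0.00168). In each case the KO library lay below every WT library and the call was kept in all 13 alternatives. The 22 p53 targets, a list that holds Cdkn1a and Pmaip1, had a median log2 fold change of -0.179 beside -0.158 for all genes. In edgeR 3 were called lower, against 10.4% of all genes, and none higher. These counts were 6 lower and 2 higher without WT library 1, and 5 lower and 4 higher with DESeq2.

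WT cTEC libraries also held RNA of tuft cell genes, and the KO library held little of it. In bulk samples fewer cells of a type and less RNA per cell cannot be told apart. Tuft cells are chemosensory: bitter and sweet receptors couple through gustducin and phospholipase C to the cation channel TRPM5, and the factor POU2F3, which binds octamer sequences, specifies them. The promoter of Tas2r108, which encodes a bitter receptor, is shown because its level was the most even of the 4 highest receptors over the WT libraries and its window holds an octamer, ATGCAAAT or its complement, in capitals (RefSeq, GRCm38.p6, same window).
Tas2r108, chr6:40493342-40493641, plus strand: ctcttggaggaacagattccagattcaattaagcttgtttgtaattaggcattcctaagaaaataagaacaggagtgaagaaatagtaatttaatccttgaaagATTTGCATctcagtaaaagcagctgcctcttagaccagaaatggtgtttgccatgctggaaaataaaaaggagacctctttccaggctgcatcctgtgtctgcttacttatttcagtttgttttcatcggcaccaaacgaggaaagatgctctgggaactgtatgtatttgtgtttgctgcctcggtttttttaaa

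The octamer was found on either strand in 6 of 26 bitter receptor promoters in the table (23.1%), in 2 of 11 taste transduction promoters (18.2%), in 1 of 20 promoters of other tuft genes (5.0%), and in 1.5% of the tested genes. For TTTGAA or TTCGAA the shares were 34.6%, 36.4%, 15.0% and 14.6% in the same order, and 28.0% in interferon-stimulated promoters. The excess over the tested genes was thus not limited to the octamer.

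Bitter receptor genes were absent from the counts of the KO library. All 30 tested bitter receptors had 0 counts there, and 29 of them lay below every WT library. They passed the filter only through WT libraries, so the shares over all genes (35.1% below, 10.4% called lower) are not a like comparison. Some WT values also lie under the KO limit of 0.191 CPM, such as 0.0555 CPM for Tas2r120 in WT library 4. Their summed level was 121, 226, 219 and 231 CPM in WT libraries 1 to 4 and 0 CPM in the KO library. Tas2r108 was at 16.9, 20.98, 15.9 and 22.5 CPM in WT (at least 99.8-fold lower). Tas2r105 was the highest in WT libraries 2 to 4 at 9.72, 40.05, 34.9 and 44.9 CPM (at least 169-fold lower), and Tas2r138 was at 10.5, 28.5, 27.1 and 18.2 CPM (at least 110.3-fold lower). WT library 1 was the lowest WT library for Tas2r105 and Tas2r138. In edgeR 21 of the 30 were called lower, and in limma-voom none. For Tas2r108 the adjusted p was 0.000466 in edgeR and 6.57e-06 to 0.113 over the alternatives, the highest in limma-voom. The genes lie in clusters and resemble each other, so reads can be split among copies, which the summed level does not share.

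**Figure D3:**
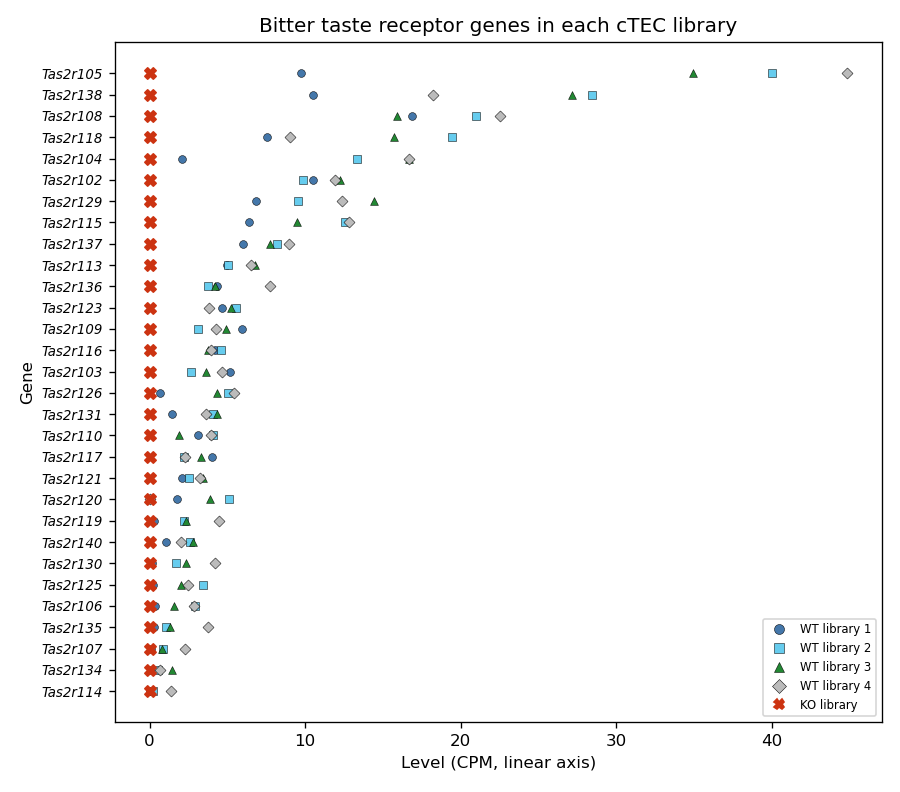
Levels (CPM, linear axis) of the 30 tested bitter taste receptor genes, ordered by their mean in the WT libraries, with 1 symbol per library. The KO library is at 0 for every gene, while the highest WT levels reach 44.9 CPM for Tas2r105.

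Further along the taste cascade, 9 of 13 genes were called lower. Trpm5 was at 203, 297, 156 and 276 CPM in WT and had 0 counts in KO (at least 1218-fold lower, adjusted p = 0.000195). Gnat3, which encodes alpha-gustducin, was at 217, 341, 282 and 275 CPM in WT and at 0 counts as well (at least 1457-fold lower). Plcb2, the phospholipase of the cascade, was at 72.1, 137, 94.6 and 148 CPM in WT and 1 count remained in KO. These genes were called in edgeR and DESeq2 but not in limma-voom (adjusted p = 0.000195 in edgeR and 2.83e-10 to 0.14 over the alternatives, the highest in limma-voom for Trpm5, adjusted p = 0.000144 in edgeR and 9.01e-11 to 0.064 over the alternatives, the highest in limma-voom for Gnat3 and adjusted p = 0.000363 in edgeR and 3.78e-11 to 0.191 over the alternatives, the highest in limma-voom for Plcb2). Signalling genes that other cells use too stayed near WT: Gnb1 was at 349.6, 300.2, 332 and 287 CPM in WT and 382 CPM in KO, and Itpr3, the calcium release channel, within the WT range at 29.8 CPM.

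Of 26 tuft transcription, effector and structural genes 22 were called lower, 11 of them in limma-voom, and 23 lay below all WT libraries. Hepacam2, an adhesion protein, was even in WT at 134, 135, 123 and 134 CPM and had 0 counts in KO (at least 687-fold lower), a call kept in all 13 alternatives. Dclk1, a kinase used as a tuft marker, was at 245, 260.3, 149 and 243 CPM in WT and 15.1 CPM in KO, and Alox5, which starts leukotriene synthesis, at 128, 152, 81.5 and 158 CPM and 5.48 CPM. Pou2f3 was reduced less: it was at 69.3, 86.5, 55.8 and 86.4 CPM in WT and 21.7 CPM in KO (log2 fold change -1.78 ± 0.34, adjusted p = 0.0115). Sox9, Ascl2 and Trpm4 were within the WT range, at 312 CPM, 7.52 CPM and 14.5 CPM in KO.

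Medullary genes were low in the KO library as well. All 17 mature mTEC genes lay below every WT library and 12 were called lower, 6 in limma-voom, with a median log2 fold change of -4.72. Ubd, an ubiquitin-like protein of mature medullary cells, was at 1052, 598, 498 and 676 CPM in WT and 11.7 CPM in KO (log2 fold change -5.92 ± 0.58, adjusted p = 0.000647). Traf1, an adaptor of TNF receptors, was at 76.4, 68.5, 43.2 and 57.2 CPM and 4.84 CPM (log2 fold change -3.66 ± 0.44, adjusted p = 0.00149). Relb, the NF-kB subunit that medullary development needs, was at 183, 177, 137 and 145 CPM and 105 CPM and was not called (adjusted p = 0.158). Of 15 immature and junctional genes 7 were called lower and 2 higher; the higher calls, Pdpn and Ltbr, were lost in limma-voom and without WT library 2, library 3 or library 4 (adjusted p = 0.0407 in edgeR and 0.0058 to 0.0781 over the alternatives, the highest without WT library 2 for Pdpn and adjusted p = 0.0285 in edgeR and 0.000686 to 0.0841 over the alternatives, the highest without WT library 3 for Ltbr).

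Genes of cell types that medullary cells imitate were lower in part. Of 10 microfold-like genes 7 were called lower, 4 in limma-voom, and 1 higher, 0 in limma-voom. Ccl9, a chemokine, was at 96.2, 135, 112 and 116 CPM in WT and 0.382 CPM in KO (log2 fold change -8.20 ± 0.47, adjusted p = 0.000153), and Spib, the factor that specifies microfold cells, at 165, 381, 223 and 261 CPM and 1.21 CPM (log2 fold change -7.72 ± 0.69, adjusted p = 0.000477). Of 15 keratinising genes 5 were called lower, 3 in limma-voom, and Dmkn, a secreted protein of differentiating epidermis, was at 45.7, 64.2, 33.9 and 48.02 CPM in WT and 3.44 CPM in KO (log2 fold change -3.80 ± 0.47, adjusted p = 0.00167). Of 10 enterocyte and liver transcription factors 4 were called lower, 1 in limma-voom, and 1 higher, 0 without WT library 3. Elf3, a factor of gut and airway epithelium, was at 164, 316, 178 and 286 CPM in WT and 38.9 CPM in KO (log2 fold change -2.60 ± 0.46, adjusted p = 0.00798). Of 12 ciliated, ionocyte and secretory genes 4 were called lower and of 11 neuroendocrine and muscle factors 3, and none of these 7 calls held in limma-voom.

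Antigens of other tissues were lower in part. Of 21 peptide hormone genes 15 had 0 counts in KO and 7 were called lower; their summed level was 115 to 228 CPM in WT and 6.44 CPM in KO. Of 16 liver plasma proteins 4 and of 6 milk and saliva genes 2 were called lower, and 5 of each list had 0 counts in KO. Genes at 0 counts in KO passed the filter only through WT libraries and could only come out lower. The shares over all genes are therefore not a like comparison for these lists. The liver proteins summed to 229 to 660 CPM in WT and 33.9 CPM in KO. Of these 13 calls limma-voom made none, while DESeq2 called 12 hormone genes and 8 liver genes lower; the milk and saliva count was 1 without WT library 1, library 2 or library 3. Csn2, which encodes beta-casein, was at 128, 121, 99.2 and 99.8 CPM in WT and had 0 counts in KO (at least 586-fold lower, adjusted p = 0.000144 in edgeR and 5.34e-09 to 0.0604 over the alternatives, the highest in limma-voom). Crp, the C-reactive protein gene, was at 21.1, 29.9, 42.2 and 37.03 CPM in WT and 0.191 CPM in KO (adjusted p = 0.000681 in edgeR and 4.00e-13 to 0.141 over the alternatives, the highest in limma-voom).

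Skint genes, a family of butyrophilin-like membrane proteins of thymic epithelium and skin of which Skint1 selects epidermal gamma-delta T cells, were examined after their values were seen. Of 10 tested members 9 were called lower and all 10 lay below every WT library. Skint1 was at 82.01, 49.8, 63.1 and 55.9 CPM in WT and had 0 counts in KO (at least 328-fold lower). Skint7 was at 100.2, 94.3, 119.6 and 115 CPM and 1.15 CPM (log2 fold change -6.54 ± 0.39, adjusted p = 0.000153), and Skint10 at 266, 129, 181 and 160.1 CPM and 1.02 CPM (log2 fold change -7.48 ± 0.63, adjusted p = 0.000378). WT library 1 was the highest WT library for Skint1 and Skint10 but not for Skint7. The members are similar in sequence, so a read count of a single copy is uncertain. Over the alternatives the adjusted p was 5.32e-49 to 0.00884 for Skint7 and 3.38e-41 to 0.0285 for Skint10. Skint1 lost its call in limma-voom (adjusted p = 0.000195 in edgeR and 7.30e-08 to 0.109 over the alternatives, the highest in limma-voom).

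Signals by which T cell progenitors and the epithelium act on each other changed by member. Of 19 Notch pathway genes 4 were called higher, against 3.6% of all genes, and none lower in edgeR. Without WT library 1 there was 1 called lower, and with DESeq2 2. Dll4, the Notch ligand that commits progenitors to the T lineage, was at 35.02, 29.2, 17.2 and 17.2 CPM in WT and 78.5 CPM in KO (log2 fold change 1.67 ± 0.39, adjusted p = 0.0255). Hey1, a transcriptional target of Notch, was at 103, 78.03, 82.1 and 62.02 CPM and 348 CPM (log2 fold change 2.10 ± 0.25, adjusted p = 0.00148). Hey2, a related target, was at 18.1, 15.8, 21.3 and 25.1 CPM and 55.1 CPM, and its call was lost with all 8 libraries in the fit (adjusted p = 0.0162 in edgeR and 0.00096 to 0.0692 over the alternatives, the highest with all 8 libraries). Jag1 and Jag2, other Notch ligands, were at 122 CPM and 176 CPM in KO and were not called.

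RANK and CD40 signalling, through which T cells drive medullary growth, had 7 of 17 genes called lower and 2 higher. The shares over all genes were 10.4% and 3.6%. Tnfrsf11a, the receptor RANK, was at 151, 145, 137 and 158 CPM in WT and 4.14 CPM in KO. Its decoy receptor gene Tnfrsf11b was at 104, 171, 119 and 139.8 CPM and 2.87 CPM (log2 fold change -5.54 ± 0.44, adjusted p = 0.000329). Nfkb1, which encodes the p105 precursor of NF-kB, was higher, at 161, 213, 231 and 201 CPM in WT and 476 CPM in KO (log2 fold change 1.24 ± 0.23, adjusted p = 0.0101), and Rela, which encodes the p65 subunit, was within the WT range at 159.8 CPM. The count of 7 was 4 without WT library 2 or in limma-voom and 3 without WT library 3, and that of 2 was 1 without WT library 2, library 3 or library 4.

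Among Wnt genes 4 of 33 were called higher and 6 lower, against 3.6% and 10.4% of all genes. Their median log2 fold change was -0.042. Axin2, a feedback target of the pathway, was at 6.16, 8.19, 10 and 7.61 CPM in WT and 33.02 CPM in KO (log2 fold change 2.04 ± 0.37, adjusted p = 0.00847). Wnt3a, a ligand, was at 1.45, 4.36, 1.55 and 0.833 CPM and 29.3 CPM (log2 fold change 3.85 ± 0.70, adjusted p = 0.009), and the receptors Fzd1 and Fzd3 rose to 55.97 CPM and 105 CPM. Sfrp1, a secreted antagonist, fell from 188, 324, 287 and 320.2 CPM to 8.54 CPM (log2 fold change -5.03 ± 0.45, adjusted p = 0.000486), and the ligand gene Wnt10a from 29.4, 32.2, 26.03 and 43.8 CPM to 1.21 CPM (log2 fold change -4.75 ± 0.51, adjusted p = 0.000984). Wnt4, the main Wnt of thymic epithelium, was at 283, 301, 321 and 272 CPM in WT and 390.2 CPM in KO and was not called (adjusted p = 0.24). The 6 lower calls became 2 without WT library 2 or in limma-voom and 3 without WT library 3 or library 4.

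BMP and TGF-beta genes split between ligands. Bmp4 was at 3.41, 6.81, 4.86 and 11.2 CPM in WT and 60.6 CPM in KO, and Bmp7 at 55.5, 70.8, 63.2 and 86.1 CPM and 237 CPM (log2 fold change 1.78 ± 0.25, adjusted p = 0.00275). Tgfbr2, a TGF-beta receptor, was at 84.8, 85.9, 66.2 and 81.4 CPM and 305 CPM (log2 fold change 1.94 ± 0.21, adjusted p = 0.000939). Tgfb2 fell from 28.4, 22.7, 19.9 and 24.2 CPM to 3.95 CPM (log2 fold change -2.59 ± 0.41, adjusted p = 0.00524), and Fst, which encodes the activin antagonist follistatin, from 135, 259, 330.2 and 261 CPM to 38.9 CPM (log2 fold change -2.66 ± 0.50, adjusted p = 0.0105). Altogether 3 of 23 were called higher and 5 lower, 2 of the latter in limma-voom, against 3.6% and 10.4% of all genes in edgeR.

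Growth factor output of the ERK pathway was mixed. Etv5, an ETS factor induced by FGF signalling, was at 8.63, 8.19, 12.9 and 6.94 CPM in WT and 127 CPM in KO (log2 fold change 3.79 ± 0.31, adjusted p = 0.000359), and the related Etv4 reached 25.2 CPM from a WT range of 0.383 to 2.55 CPM. Dusp6, another target of the pathway, was within the WT range at 103 CPM. Fgf9 fell from 33.3, 33.6, 41.1 and 45.5 CPM to 3.95 CPM (log2 fold change -3.28 ± 0.38, adjusted p = 0.00139). Of 14 EGF receptors and ligands 5 were called lower and none higher, a count that was 8 without WT library 1 or with DESeq2, 2 without WT library 2 and 0 in limma-voom. Egfr itself was at 116, 149, 144 and 119 CPM in WT and 123 CPM in KO.

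Of 18 genes of MHC class I presentation 7 were called lower, and of 11 class II genes 1, the protease gene Ctss (2 without WT library 1). Class I molecules show peptides to CD8 T cells and need beta-2-microglobulin for assembly, and interferons raise both through elements whose core reads GAAA, any 2 bases and GAAA. The promoters of B2m and Cxcl10 are shown because both genes were called lower in all 13 alternatives and hold that core, in capitals (RefSeq, GRCm38.p6, 250 bases before to 50 after the start, on the gene's strand).
B2m, chr2:122147437-122147736, plus strand: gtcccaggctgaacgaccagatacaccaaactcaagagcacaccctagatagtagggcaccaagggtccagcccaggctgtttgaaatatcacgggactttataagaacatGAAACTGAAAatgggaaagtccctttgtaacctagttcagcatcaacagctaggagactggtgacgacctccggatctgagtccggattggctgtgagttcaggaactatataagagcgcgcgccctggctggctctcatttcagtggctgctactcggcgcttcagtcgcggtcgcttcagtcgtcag
Cxcl10, chr5:92348840-92349139, minus strand: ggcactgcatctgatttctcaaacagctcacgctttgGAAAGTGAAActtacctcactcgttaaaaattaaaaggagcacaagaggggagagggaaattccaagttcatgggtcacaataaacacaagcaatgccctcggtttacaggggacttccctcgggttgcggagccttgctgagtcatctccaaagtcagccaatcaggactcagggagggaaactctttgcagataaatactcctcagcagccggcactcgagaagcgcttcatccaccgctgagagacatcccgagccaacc

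The core was found on either strand in 16 of 25 interferon-stimulated promoters in the table (64.0%) and in 3.2% of the tested genes.

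B2m was at 7097, 4567, 6206 and 5920.2 CPM in WT and 977 CPM in KO (log2 fold change -2.60 ± 0.38, adjusted p = 0.00358). H2-K1 and H2-D1, the classical heavy chains, were at 5273, 5605, 4965 and 4402 CPM and 4049, 5008, 3936 and 3536 CPM in WT and at 1649 CPM and 1427 CPM in KO (log2 fold change -1.62 ± 0.31, adjusted p = 0.0116 and log2 fold change -1.53 ± 0.33, adjusted p = 0.0173). Nlrc5, the transactivator of class I genes, was at 88.6, 100.2, 106 and 119 CPM in WT and 8.61 CPM in KO (log2 fold change -3.59 ± 0.32, adjusted p = 0.000477). In each of these 4 genes the KO library lay below all WT libraries, and reads of the heavy chain genes can be split among near-identical copies. The peptide transporter genes Tap1 and Tap2 were within the WT range, at 322 CPM and 207 CPM in KO. Cd74, the invariant chain, was at 14579, 11341, 12555 and 9389 CPM in WT and 10912 CPM in KO, and H2-Ab1, a class II beta chain, at 7693, 7261, 7646 and 5971 CPM and 7343 CPM. Their log2 fold changes were -0.13 ± 0.34 and 0.04 ± 0.29 (SE). The difference between the lists was not tested.

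**Figure D4:**
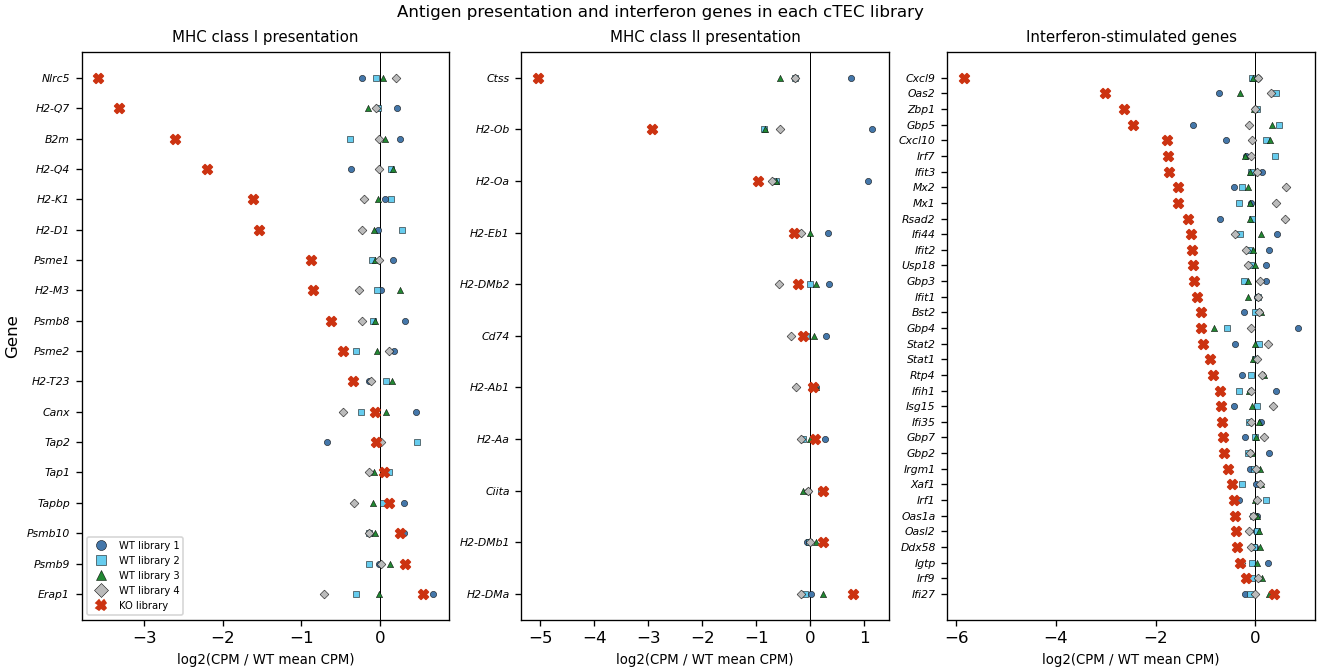
Level of each gene in each library as log2 of its CPM over the mean CPM of the 4 WT libraries, for MHC class I presentation (18 genes), MHC class II presentation (11 genes) and interferon-stimulated genes (34 genes), ordered by the change in the KO library. Crosses of the KO library lie left of all WT symbols for 11 class I, 4 class II and 33 interferon-stimulated genes.

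Interferon-stimulated genes lay below every WT library in 33 of 34 cases, against 35.1% of all genes, and 14 were called lower, with a median log2 fold change of -1.07. Cxcl10, a chemokine of the interferon response, was at 221, 384, 407 and 315 CPM in WT and 97.2 CPM in KO (log2 fold change -1.77 ± 0.38, adjusted p = 0.0174). Oas2, which senses double-stranded RNA, was at 51.8, 114, 69.4 and 106 CPM and 10.6 CPM (log2 fold change -3.00 ± 0.52, adjusted p = 0.00754). Irf1 and Oasl2 were below the WT range by less, at 388 CPM and 493 CPM in KO against WT lows of 419.6 and 593 CPM, and were not called. Without WT library 3 the count of 14 was 9, and with DESeq2 it was 20.

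Chemokine ligands were lower with exceptions. Of 24 tested 13 were called lower, 4 in limma-voom, and none higher (1 without WT library 1 or with DESeq2). Ccl21a, the medullary ligand of CCR7, was at 753, 696, 981 and 665 CPM in WT and 1.53 CPM in KO. Ccl20 was at 233, 548, 491 and 378 CPM and 0.382 CPM (adjusted p = 0.000359 in edgeR and 1.17e-41 to 0.0795 over the alternatives, the highest in limma-voom), and Cxcl16 at 140.1, 183, 174 and 139 CPM and 34.3 CPM (log2 fold change -2.21 ± 0.29, adjusted p = 0.00212). Cxcl12, which holds progenitors in the cortex, was at 893, 696, 811 and 584 CPM in WT and 1335 CPM in KO, above the WT range but not called (adjusted p = 0.0783). Cx3cl1, a membrane-bound chemokine, was within the WT range at 245 CPM. Of 21 NF-kB and inflammatory genes 20 lay below all WT libraries and 13 were called lower, 5 in limma-voom, and Tnfaip3, a feedback inhibitor of NF-kB, was at 156, 216, 179 and 129.5 CPM in WT and 31.7 CPM in KO (log2 fold change -2.42 ± 0.35, adjusted p = 0.00331).

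Ligands that T cells meet during selection included Cd274, which encodes PD-L1, at 237, 217, 224 and 180.5 CPM in WT and 46.3 CPM in KO (log2 fold change -2.21 ± 0.27, adjusted p = 0.00155). Il7, the survival factor of thymocytes, was at 396, 319, 430.4 and 323 CPM and 207 CPM and Kitl, the KIT ligand, at 64.1, 30.8, 46.98 and 27.3 CPM and 107 CPM. Neither was called (adjusted p = 0.0775 and 0.0651), although the KO library lay below all WT libraries for Il7 and above them for Kitl. Of the 17 genes of this list 4 were called lower and 1 higher (3 higher without WT library 1 or with DESeq2).

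Extracellular matrix genes changed in both directions. Thbs2, a matricellular inhibitor of angiogenesis, was at 67.2, 65.2, 50.6 and 51.4 CPM in WT and 493 CPM in KO (log2 fold change 3.07 ± 0.21, adjusted p = 0.000195), and Fbln2, a microfibril protein, at 12.8, 9.34, 8.73 and 6.72 CPM and 243 CPM (log2 fold change 4.70 ± 0.29, adjusted p = 0.000163). Fn1, which encodes fibronectin, fell from 148, 176, 171 and 143 CPM to 55.97 CPM (log2 fold change -1.51 ± 0.25, adjusted p = 0.006), and Lox, which crosslinks collagen, from 87.6, 77.2, 75.6 and 60.5 CPM to 10.1 CPM (log2 fold change -2.90 ± 0.33, adjusted p = 0.00128). Of 17 collagens 5 were called higher and 4 lower, against 3.6% and 10.4% of all genes. Col18a1, a basement membrane collagen, was at 238, 294, 199 and 228 CPM in WT and 790.2 CPM in KO (log2 fold change 1.72 ± 0.23, adjusted p = 0.00258), whereas Col6a1 was at 300.1, 408, 503 and 397 CPM and 110 CPM (log2 fold change -1.87 ± 0.33, adjusted p = 0.00819). Of the small leucine-rich proteoglycans, Prelp was at 161, 149, 212 and 153 CPM and 437 CPM (log2 fold change 1.37 ± 0.24, adjusted p = 0.00708) and Dcn, which encodes decorin, at 826, 578, 752 and 586 CPM and 569 CPM (adjusted p = 0.57).

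Some matrix genes are also fibroblast markers. Of 13 fibroblast markers 3 were called higher, against 3.6% of all genes, and none lower: Col1a1 was at 6.02, 11.9, 16.03 and 6.72 CPM in WT and 80.9 CPM in KO, Col1a2 at 14.3, 6.43, 23.99 and 9.38 CPM and 75.99 CPM, and Pi16 at 0.580, 0.0766, 0.663 and 0.167 CPM and 11.2 CPM. Of the 13, 6 lay above all WT libraries, 5 within their range and 2 below, among the latter Dcn. The summed level of the 13 markers was 785 to 1039 CPM in WT and 1132 CPM in KO, and none was at 0 there. The part of fibroblast RNA in the higher matrix genes was not tested.

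Genes of protein synthesis lay above the WT range in most cases, few of them called. Of 24 cytosolic ribosomal protein genes 23 lay above all WT libraries, against 28% of all genes, with a median log2 fold change of 0.78, and 5 were called higher, 10 with DESeq2, 2 in limma-voom and 1 without WT library 2 or library 3. Rplp0, a stalk protein of the large subunit, was at 206, 189.7, 209 and 232 CPM in WT and 423 CPM in KO (log2 fold change 1.02 ± 0.20, adjusted p = 0.0133). Mitochondrial ribosomal protein genes lay above all WT libraries in 21 of 24 cases with 1 called, Mrpl3, at 75.6, 60.7, 73.3 and 69.01 CPM in WT and 199 CPM in KO (log2 fold change 1.51 ± 0.21, adjusted p = 0.00262). Without WT library 1 there were 3 called, and 5 with DESeq2.

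Mitochondrial respiration genes were listed by genome, and the difference between the lists was not tested. Of 24 nuclear genes of oxidative phosphorylation 0 were called in edgeR, 3 higher in DESeq2 or without WT library 1 and 0 in limma-voom, with a median log2 fold change of 0.274. At an unadjusted p under 0.05, 3 of the 24 were higher and 0 lower. Of 13 mitochondrially encoded genes 9 lay below all WT libraries, against 35.1% of all genes, with a median of -1.14. In edgeR 2 were called lower, against 10.4% of all genes. The count was 5 without WT library 1, 0 without library 3, 1 without library 4 and 7 with DESeq2. Mitochondrial genes took 0.698% of the KO counts and 1.08% to 1.87% of the WT counts. ND5, a complex I subunit, was at 699, 575, 857 and 1003 CPM in WT and 288 CPM in KO, a call lost without WT library 3 (adjusted p = 0.031 in edgeR and 0.000197 to 0.0711 over the alternatives, the highest without WT library 3). Genes of mitochondrial fusion and fission, a process in which MCL-1 has been given a role, had 0 of 12 called by edgeR, DESeq2 or limma-voom and 0 at an unadjusted p under 0.05, with 4 above and 1 below the WT range.

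Genes of serine synthesis and of the ATF4 response split by member. Of 22 genes 2 were called higher, 4 without WT library 1 or with DESeq2, and 4 lower, 1 in limma-voom. The shares over all genes were 3.6% higher and 10.4% lower. Psat1 and Phgdh, enzymes that make serine from a glycolytic intermediate, were at 224, 135, 190.1 and 127 CPM and 70.6, 67.9, 72.5 and 65.4 CPM in WT and at 851 CPM and 225 CPM in KO (log2 fold change 2.33 ± 0.29, adjusted p = 0.00183 and log2 fold change 1.71 ± 0.19, adjusted p = 0.0011). Slc7a11, the cystine importer, fell from 91.9, 65.4, 65.9 and 74.95 CPM to 3.95 CPM (log2 fold change -4.24 ± 0.38, adjusted p = 0.000477), while Slc3a2, its partner chain, was within the WT range at 329 CPM. Atf4, which encodes the factor of this response, was within the WT range at 95.1 CPM. WT library 1 set the low end of that range at 72.2 CPM, and the other WT libraries were at 122.8 to 126.6 CPM. Nqo1, an NRF2 target, was higher, at 156, 107, 130.4 and 116 CPM in WT and 505 CPM in KO (log2 fold change 1.99 ± 0.23, adjusted p = 0.00128). Of 17 glycolysis genes 3 were called lower and 1 higher, against 10.4% and 3.6% of all genes. Their median log2 fold change was -0.095. Pfkfb3, which makes an activator of glycolysis, was lower at 39.7, 67.1, 58.6 and 58.96 CPM and 5.67 CPM, as was the phosphofructokinase gene Pfkp at 115, 142, 112 and 98.9 CPM and 20.1 CPM and the lactate exporter gene Slc16a3 at 9.79, 8.04, 7.30 and 11.3 CPM and 1.91 CPM. The call of Slc16a3 was lost in limma-voom and without WT library 2, library 3 or library 4 (adjusted p = 0.0404 in edgeR and 0.00228 to 0.141 over the alternatives, the highest in limma-voom). Pdk1, a kinase that restrains pyruvate dehydrogenase, was higher at 33.8, 37.4, 31.01 and 31.8 CPM and 71.6 CPM (log2 fold change 1.10 ± 0.23, adjusted p = 0.0171), a call lost without WT library 3. Ldha, lactate dehydrogenase A, was within the WT range at 492 CPM. Autophagy genes had 0 of 22 called in edgeR or limma-voom, 1 higher in DESeq2, and 2 higher and 1 lower without WT library 1, with 2 higher and 1 lower at an unadjusted p under 0.05, and 15 lay within the WT range.

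Lysosomal cathepsins included members of cortical antigen processing. Ctsl, the cathepsin that makes class II peptides in the cortex, was at 5133, 3205, 3896 and 2163 CPM in WT and 3348 CPM in KO, within the WT range. Ctsh fell from 158, 222, 140.2 and 176 CPM to 11.2 CPM (log2 fold change -3.96 ± 0.37, adjusted p = 0.000571) and Ctsz from 209.9, 215, 185 and 148 CPM to 63.7 CPM (log2 fold change -1.57 ± 0.29, adjusted p = 0.00938). Of 13 cathepsins 4 were called lower, against 10.4% of all genes, and none higher. In limma-voom 2 were called lower.

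Summed markers of immune and vascular cells were below the WT range, and those of erythroid cells, like those of fibroblasts, above it. Summed levels of the tested thymocyte markers were 107 to 225 CPM in WT and 67.3 CPM in KO, of B cell markers 46.5 to 95.8 CPM and 5.55 CPM, and of dendritic cell and macrophage markers 151 to 252 CPM and 24.0 CPM. In edgeR 2 of 15, 3 of 8 and 2 of 10 of these were called lower, against 10.4% of all genes, and none higher. The lower calls were 1, 0 and 1 in limma-voom, and 1 dendritic cell and macrophage marker lay above all WT libraries. Lyz2, the macrophage lysozyme, was at 227, 125, 142 and 209 CPM in WT and 9.18 CPM in KO (log2 fold change -4.26 ± 0.47, adjusted p = 0.0011). Endothelial and pericyte markers summed to 351 to 425 CPM in WT and 275 CPM in KO, with 3 of 14 called lower, 1 in limma-voom. Of the 14, 5 lay below all WT libraries and 4 above them. Erythroid and platelet markers summed to 30.3 to 126 CPM in WT, the highest in WT library 4, and 646 CPM in KO. In edgeR 4 of 8 were called higher, a count that was 1 without WT library 3 or with no filter. Of the 8, 4 lay above all WT libraries, 2 below them and 2 within their range. Hba-a1, an alpha-globin gene with a near-identical copy, was at 3.77, 7.35, 8.35 and 30.9 CPM in WT and 196 CPM in KO, a call lost without WT library 3 and with no filter (adjusted p = 0.0173 in edgeR and 0.00188 to 0.0873 over the alternatives, the highest with no filter). Alas2, the first enzyme of heme synthesis in red cells, was at 7.18, 5.13, 6.80 and 4.55 CPM and 27.3 CPM (log2 fold change 2.21 ± 0.40, adjusted p = 0.00914). The part of blood cell RNA in other results was not tested.

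Several of the largest increases fell outside these groups. Of the 12 increases the naming rule took, Cthrc1, a secreted protein of collagen-rich tissue, had the largest fold, at 5.87, 1.76, 3.43 and 0.4997 CPM in WT and 104 CPM in KO (log2 fold change 5.17 ± 0.77, adjusted p = 0.00439). Tnfrsf19, a TNF receptor family member, was at 15.8, 23.2, 29.7 and 24.3 CPM and 361 CPM (log2 fold change 3.95 ± 0.28, adjusted p = 0.000195). Lmo3, a LIM-only transcriptional cofactor, was at 2.39, 2.07, 1.33 and 0.944 CPM and 55.4 CPM, and Sptssb, a subunit of the enzyme that starts sphingolipid synthesis, at 21.5, 18.6, 27.1 and 15.05 CPM and 279 CPM. For these 4 genes the KO level was 10.3 to 23.2 times the highest WT level.

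**Figure D5:**
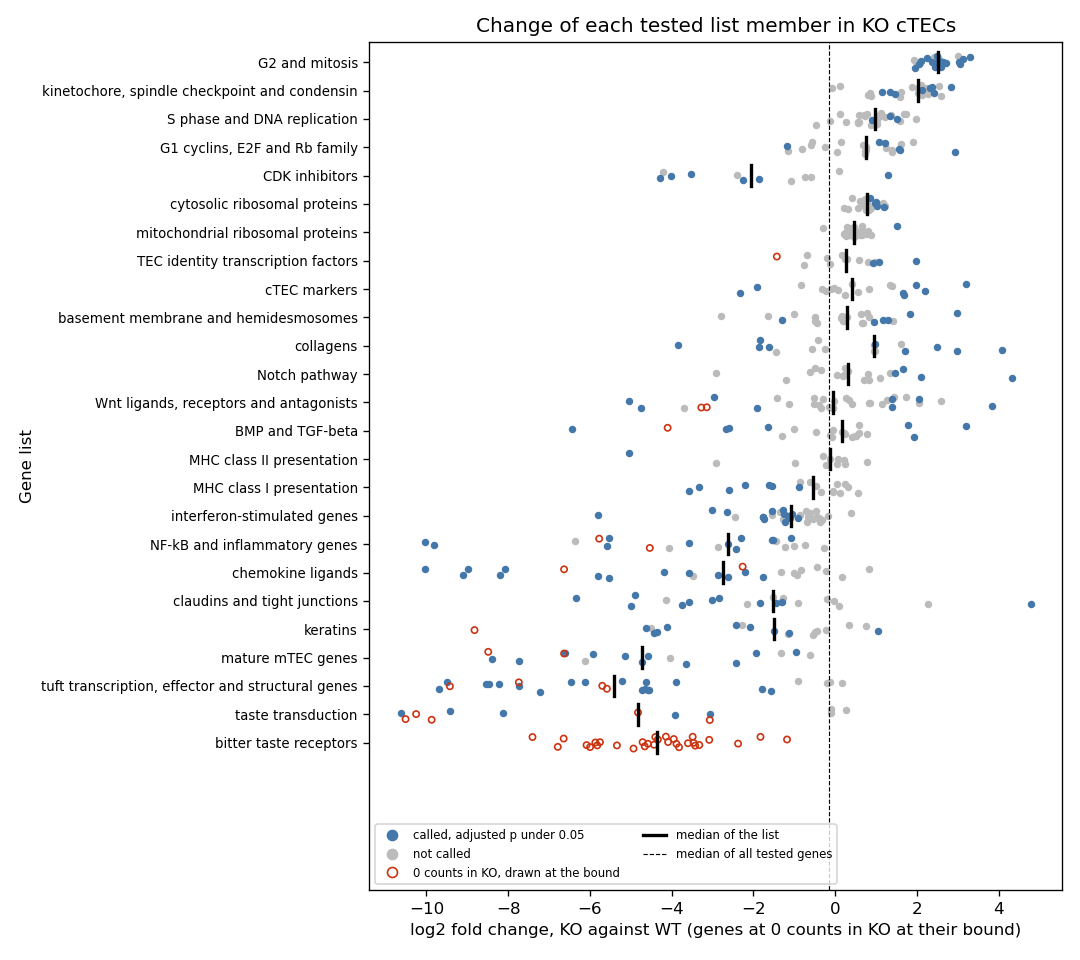
Log2 fold change of each tested member of 25 gene lists in KO against WT cTECs, with blue points for called genes, grey points for others, open red points for genes with 0 counts in KO (at their bound) and a bar at each list's median. The dashed line at -0.158 is the median of all 17483 tested genes; mitotic genes sit to its right and tuft and bitter receptor genes to its left.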

How the data were processed

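PolyA RNA of 5 cTEC libraries (4 WT, 1 KO) was analysed. The deposited values are raw counts of reads per gene, made by the authors with featureCounts on mm10 per the submitters' processing notes; no source used here names the aligner, versions or strand setting. A series table with 8 columns that match no label was not used. Symbols came from RefSeq (GRCm38.p6) for 25275 identifiers (93%); those without one held 0.887% to 1.39% of the counts.

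Genes that reached a CPM of 1 in any of the 5 libraries were kept. After TMM scaling, KO was tested against WT by the robust quasi-likelihood F test in edgeR 4.0.16 in R 4.3.3 on the 5 libraries, with 1 mean per genotype, no covariate and 3 residual degrees of freedom. P-values are two-sided and test KO against WT. Their error rests on the spread between the WT libraries, which the KO library is assumed to share. Standard errors (SE) were taken as the absolute log2 fold change over the square root of F. The fit was tested on simulated data. The 69 gene lists hold 1155 genes found in the files, 1092 of them tested; list members and named genes were chosen with earlier results of these data known. The rule for named genes took Mcl1, Foxn1, Trpm5 and Plk1, the 12 largest called changes per direction with an average log2 CPM from 3 upward, the KO library outside the WT range and no predicted gene names, up to 4 called members per direction and 2 uncalled members of the highest level from each list, and the 5 genes tested on each side of Mcl1. The text prints a portion of these, picked after their values were seen, mainly those whose call no alternative ended. Some genes the rule took are not reported here. Other genes the text names, such as further list members within the WT range and the Skint genes, were also chosen after their values were seen.

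Alternatives were RLE, upper-quartile and total scaling, 3 other filters, DESeq2 1.42.0, limma-voom (limma 3.58.1), a fit with all 8 libraries, and each WT library left out in turn, 13 in all, with values against WT library 1 alone as a further description without a test. Promoters came from a RefSeq table with windows for 27025 genes.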

Additional observations from a re-analysis of the deposited data

Results flagged for a closer look

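In 9 of the 169 genes named, 1 of the 4 WT libraries stood so far from the other 3 that its gap to the nearest of them exceeded Dixon's 95% critical share of the range; chance flags about 1 gene in 20. WT library 1 was high for Ccnb1 at 13.1 CPM against 2.89 to 4.48 CPM in the others, for Ctss at 103 CPM against 41.2 to 50.001 CPM, and for Lypd8 at 225 CPM against 38.2 to 55.1 CPM. It was low for Atf4, at 72.2 CPM against 122.8 to 126.6 CPM. WT library 3 was low for Dclk1 (149 CPM against 243 to 260.3 CPM), Hepacam2 (123 CPM against 134 to 135 CPM) and Bcl2a1d (16.9 CPM against 22.7 to 23.8 CPM), all of them genes whose KO level lay far below any WT library. WT library 2 was high for Pmaip1 (153 CPM against 99.7 to 107 CPM), and WT library 4 for Hba-a1 (30.9 CPM against 3.77 to 8.35 CPM).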

How the results depend on the processing

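Counts over all genes depended on the tool and on single WT libraries. Genes called higher numbered 629 with edgeR and 1079 with DESeq2, and 334 to 1140 when a WT library was left out, the lowest without library 3, the highest without library 1, and 401 without library 2. Genes called lower numbered 1821 with edgeR, 2866 with DESeq2 and 475 with limma-voom, and 1323 to 2358 when a WT library was left out. Of the 2450 genes called, 1518 were called in every leave-one-out fit, 303 higher and 1215 lower. Trpm5 kept its direction in limma-voom (log2 fold change -12.79) but not its call (adjusted p = 0.14). Mcl1, Foxn1 and Plk1 kept their calls in all 13 alternatives. Of 126 named genes with a call, 94 kept it in all alternatives and 32 lost it in at least 1, 25 of them in limma-voom. No call of a named gene turned its direction. The named genes were picked mainly as those whose call no alternative ended, so the share kept does not describe all called genes. Counts of genes outside the WT range stayed within 1.5 times the values given under every alternative run for them; with WT library 1 alone there is no range and no test, so neither was run. The median log2 fold change of all genes was -0.105 with RLE size factors, -0.184 with upper-quartile scaling and -0.113 with library totals. No paired analysis was possible because the KO group has 1 library, so the groups share fewer than 2 replicate numbers. With 1 KO library, no value of its own spread exists, and at 0 counts only levels above 0.191 CPM can be told from none.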

Other observations

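Genes with 0 counts in the KO library reached beyond the lists. Of 11088 tested genes with a mean of at least 10 CPM in the WT libraries, 131 had 0 counts in the KO library, 121 of these were called lower by edgeR, and 104 belonged to none of the gene lists. Of the genes named here, Cdx1 and Slc24a4 were chosen after their values were seen. Several are best known from the gut: Cdx1, an intestinal transcription factor, was at 102, 59.4, 38.2 and 65.9 CPM in WT (at least 347-fold lower), and Lypd8, a secreted protein of the colon, at 225, 55.1, 48.1 and 38.2 CPM (at least 479-fold lower). Pik3cg, a lipid kinase of leukocytes, was at 90.4, 79.6, 38.9 and 65.1 CPM (at least 358-fold lower), and Slc24a4, a cation exchanger, at 43.2, 54.6, 51.3 and 48.9 CPM (at least 259-fold lower). WT library 1 was the highest WT library for Cdx1, Lypd8 and Pik3cg. All 4 were called in edgeR and DESeq2, and limma-voom gave the highest adjusted p of the alternatives: the ranges were 8.99e-08 to 0.249 for Cdx1, 3.77e-06 to 0.505 for Lypd8, 7.01e-08 to 0.226 for Pik3cg and 1.53e-07 to 0.0653 for Slc24a4. Lypd8 also lost its call with no filter. In the other direction, 4 genes had 0 counts in all WT libraries and at least 1 CPM in the KO library, and 0 genes at 10 CPM. At a WT mean of at least 1 CPM, 832 genes had 0 counts in the KO library. These counts are not like for like, because 1 rule needs a 0 in all 4 WT libraries and the other in 1 KO library.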
